A study of Mus musculus with 32 samples.

Results

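Gene expression was compared in the right striatum of mice killed 24 h and 2 h after blood flow returned to an occluded middle cerebral artery. The 8 arrays are the 4 samples titled as striatum at 24 h and the 4 titled as striatum at 2 h, of 32 arrays in the series. All mice were male and wild-type on a C57BL/6J background (strain label C57/Bl6), aged 8 to 10 weeks, and both groups had the artery blocked for 2 h with a suture that was then withdrawn under anaesthetic, so they differ in the time of reperfusion. Sham mice, which had the anaesthetic and the neck incision only, and mice killed at 8 h gave 4 striatum arrays each. The labels do not say whether RNA of several mice was pooled, and p-values measure the spread between arrays. Each array reads messenger RNA with beads that carry a probe, and levels are given here as background-corrected, quantile-normalized signals on the log2 scale, in the order of arrays 1 to 4. Of 17877 gene symbols on the array, 9866 were detected on all 4 arrays of at least 1 striatum group and were tested. A gene is called where limma's adjusted p is under 0.05, and changes are log2 differences, 24 h minus 2 h, ± standard error.

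The suture model imitates a stroke in which the vessel reopens. The striatum is supplied by deep branches of the middle cerebral artery and is usually part of the infarct core. Within the first hours, depolarised and stressed neurons transcribe immediate early genes, which need no new protein synthesis, and cells under protein stress transcribe chaperones. Later, microglia and astrocytes become reactive, leukocytes enter from the blood, and endothelial cells, which form the blood-brain barrier, respond to injury. A bulk tissue measurement adds all these cells together, so a larger or smaller share of a cell type and more or less RNA per cell cannot be told apart here.

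Array quality was similar in both groups. The median signal of the 8 arrays ran from 69.7 to 95.2 intensity units, 52.35% to 54.34% of probes were detected per array, and each value rested on a median of 37 to 39 beads. The 24 h arrays did not respond alike. The means of the macrophage, reactive astrocyte and interferon lists described below were highest on arrays 1 and 3, lower on array 2 and lowest on array 4. Socs3, an inhibitor of cytokine signalling, measured 10.51, 7.39, 10.23 and 6.26 on the 24 h arrays, against 9.26, 9.12, 8.73 and 9.38 on the 2 h arrays. All 4 of the 2 h arrays lay between the 2 high and the 2 low 24 h arrays. The mean difference was not called (-0.52 ± 0.65, adjusted p = 0.607). Each of 4 slides held 1 array of each reperfusion time, with the same replicate number, and position on the slide went with time, so position and time cannot be told apart.

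The tissue label was checked against markers. Ppp1r1b, the phosphatase inhibitor DARPP-32 of striatal projection neurons, had a median of 11.05 (range 9.34 to 12.25) over the 16 striatum arrays and 11.38 (10.52 to 11.77) over the 16 cortex arrays. Drd1, a dopamine receptor of the same neurons, had medians of 8.83 (7.22 to 10.47) and 8.73 (7.10 to 9.59). Both ranges overlapped, so these 2 markers do not set the striatum arrays apart from the cortex arrays. Slc17a7, the glutamate transporter of cortical neurons, had a lower median in the striatum arrays, 9.96 (8.53 to 11.66), than in the cortex arrays, 11.75 (11.13 to 11.96). Slc17a6, the glutamate transporter of thalamic and other subcortical neurons, ran from 12.20 to 13.10 in the striatum arrays, all above the 9.69 to 11.43 of the cortex arrays. Tcf7l2, a transcription factor of thalamic neurons, likewise ran from 9.61 to 10.59 against 6.42 to 8.12. Neither gene was called between 24 h and 2 h (changes of 0.04 and -0.08, adjusted p = 0.883 and 0.674). Slc17a6 measured 12.74, 12.78, 12.53 and 12.56 on the 24 h arrays, against 12.65, 12.43, 12.80 and 12.58 on the 2 h arrays, and 0 of 20 thalamic, hypothalamic and midbrain markers were called by limma (0 higher and 1 lower at an unadjusted p under 0.05). The summed signal of these 20 genes was 18200 to 21200 on the 24 h arrays and 19380 to 24140 on the 2 h arrays. The part that tissue from outside the striatum plays in any result was not tested.

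Several genes with the largest falls at 24 h are known to be induced by stimuli, through factors that bind their promoters within minutes. The 250 bases before the transcription start of 4 of them are printed to show what such promoters hold (RefSeq, GRCm38.p6, each written 5′ to 3′ on the strand of the gene). Capitals mark TGACG on either strand, the core of the cyclic AMP response element, and in Hspa1a a GAANNTTC pair, which is 2 units of a heat shock element.
Fosb (chr7:19310046-19310295, minus strand): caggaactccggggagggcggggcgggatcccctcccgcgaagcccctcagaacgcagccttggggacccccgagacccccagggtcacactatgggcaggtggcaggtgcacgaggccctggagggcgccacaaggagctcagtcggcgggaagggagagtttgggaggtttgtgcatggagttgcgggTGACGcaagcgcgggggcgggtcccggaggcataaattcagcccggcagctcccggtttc
Npas4 (chr19:4989972-4990221, minus strand): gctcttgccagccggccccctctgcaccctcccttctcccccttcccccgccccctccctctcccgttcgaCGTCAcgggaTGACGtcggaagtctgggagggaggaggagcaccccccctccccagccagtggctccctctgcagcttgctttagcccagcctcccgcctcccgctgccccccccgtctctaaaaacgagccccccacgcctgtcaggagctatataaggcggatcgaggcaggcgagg
Junb (chr8:84978749-84978998, minus strand): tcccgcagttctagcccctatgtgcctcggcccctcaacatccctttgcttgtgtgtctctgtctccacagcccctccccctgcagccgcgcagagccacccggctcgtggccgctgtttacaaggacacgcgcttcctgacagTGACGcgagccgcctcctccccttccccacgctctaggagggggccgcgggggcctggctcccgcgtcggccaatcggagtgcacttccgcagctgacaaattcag
Hspa1a (chr17:34972157-34972406, minus strand): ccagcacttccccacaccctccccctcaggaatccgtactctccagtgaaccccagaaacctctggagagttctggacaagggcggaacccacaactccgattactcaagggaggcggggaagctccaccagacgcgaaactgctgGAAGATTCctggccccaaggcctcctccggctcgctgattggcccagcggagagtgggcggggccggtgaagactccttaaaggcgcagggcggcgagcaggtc
TGACG stood once in Fosb, at 2 places in Npas4 and once in Junb, and it stands in 17.8% of 32851 promoter windows of this length. The full element TGACGTCA, which contains TGACG and is present in 1.55% of windows, was in none of the 4. GAANNTTC stood once in Hspa1a and stands in 6.69% of windows, while the full heat shock element of 3 units, in 0.466% of windows, was in none of the 4. Among the immediate early genes that fell, 7 of 9 had a promoter entry and 6 of these 7 held TGACG (Fosb, Junb, Egr4, Npas4, Nr4a2 and Nr4a3), and among those tested and not called it was 7 of 11. None of the 7 held a CArG box, the site of serum response factor, found in 1.47% of windows. Of 4 heat shock proteins and cochaperones that fell, 3 had a promoter entry and 1 of these held GAANNTTC (Hspa1a). Among those tested and not called it was 4 of 12. The full heat shock element was in 0 of the 3 and in 2 of the 12. A match is a run of letters and not a measured binding site.

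Over all 9866 genes, 1811 (18.4%) were called, 964 higher at 24 h (9.77%) and 847 lower (8.59%). At a 2-fold change or more, 79 genes were higher (0.801%) and 40 were lower (0.405%). The direction of a called gene was the same within slides, as 97.13% to 99.23% of called genes changed in their own direction on each slide, although these genes were called on the same arrays. The median change over all genes was -0.0038. Without 24 h array 1 the count of called genes dropped to 950, and at 2-fold or more it was 70 without 24 h array 1 and 206 without 24 h array 4, against 119 with all arrays.

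**Figure D1:**
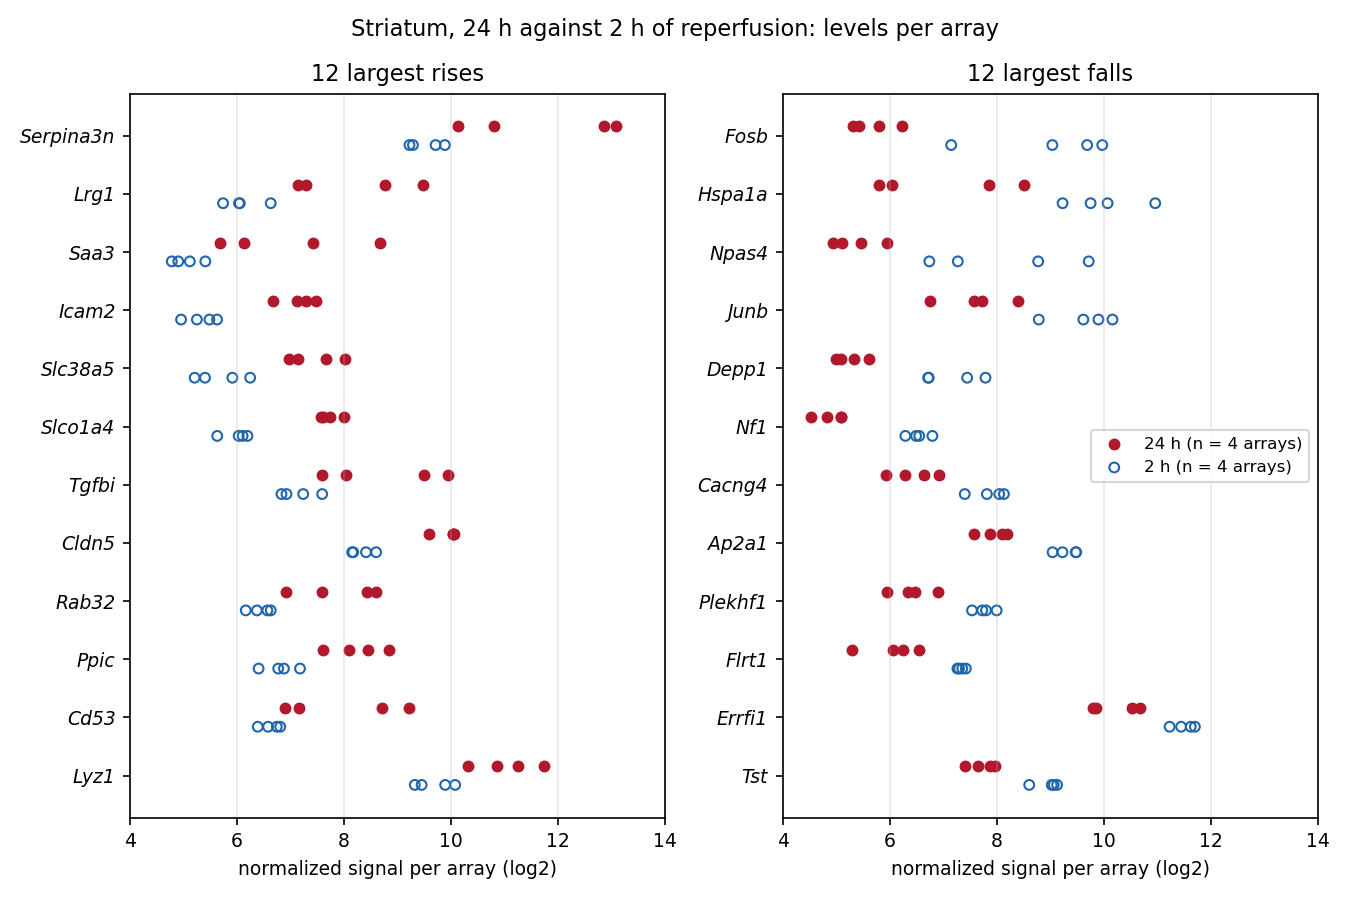
Normalized signal (log2, horizontal axis) of the 12 genes with the largest rises and the 12 with the largest falls among called genes whose groups do not overlap, with filled points for the 4 arrays at 24 h and open points for the 4 arrays at 2 h. The 24 h points of Serpina3n spread from 10.14 to 13.07, while those of Cldn5 and Slco1a4 lie close together, and every 24 h point of Fosb lies below every 2 h point.

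Immediate early genes were lower at 24 h. Of 21 tested, 9 fell and 0 rose, a share of 42.9% lower beside 8.59% of all genes, and the median change of the list was -1.07 against -0.0038 for all genes. Fosb, a subunit of the AP-1 transcription factor, measured 5.43, 5.32, 5.80 and 6.22 on the 24 h arrays, against 7.15, 9.04, 9.97 and 9.69 on the 2 h arrays. Its groups were separate by almost a full log2 unit, with 2 h array 1 the lowest of its group, and the change was the largest fall of all called genes (-3.27 ± 0.43, adjusted p = 0.000343). Npas4, a transcription factor induced by calcium entry in neurons, measured 5.46, 5.11, 4.94 and 5.95 on the 24 h arrays, against 6.74, 7.27, 9.72 and 8.78 on the 2 h arrays. All 2 h arrays were higher, arrays 3 and 4 by most (-2.76 ± 0.44, adjusted p = 0.00131). Npas4 was detected on 2 of 4 arrays at 24 h, so the size of its change rests partly on signals below detection.

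Junb, another AP-1 subunit, was also separate between the groups, at 7.72, 6.75, 8.40 and 7.58 on the 24 h arrays, against 8.79, 9.62, 9.90 and 10.16 on the 2 h arrays (-2.0 ± 0.35, adjusted p = 0.00194). Arc, which acts in the removal of glutamate receptors from synapses, measured 6.99, 7.05, 7.37 and 8.32 on the 24 h arrays, against 8.22, 8.46, 10.45 and 9.16 on the 2 h arrays. Here 24 h array 4 reached above 2 h array 1, and the mean difference still passed the test (-1.64 ± 0.40, adjusted p = 0.0118). Egr4, a zinc finger factor, also overlapped between groups and fell (-2.11 ± 0.52, adjusted p = 0.0116). In contrast, Fos itself was not called (-1.51 ± 0.52, adjusted p = 0.0507), with 10.66, 8.01, 10.18 and 8.61 on the 24 h arrays, against 9.35, 10.89, 11.42 and 11.84 on the 2 h arrays. Its 24 h arrays 1 and 3 lay within the 2 h range and arrays 2 and 4 below it. Egr1 (-0.58 ± 0.27, adjusted p = 0.145) and Atf3, a stress-induced factor (-1.21 ± 0.59, adjusted p = 0.16), were not called either. Klf2, Klf4 and Klf6, vessel and injury-related factors of the same list, had small positive differences that did not pass (0.21, 0.17 and 0.07). The count ran from 7 to 13 with 1 array left out, and was 5 with the stricter detection filter, which tests fewer genes, and 15 with array weights. By array, the mean of the 21 genes was 7.34, 6.78, 7.49 and 7.09 on the 24 h arrays, against 7.49, 8.15, 8.81 and 8.77 on the 2 h arrays, and 2 h array 1 lay at the level of 24 h array 3. Of 8 phosphatases that switch off MAP kinases, limma called 0 (0 higher and 3 lower at an unadjusted p under 0.05).

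Hspa1a, the inducible HSP70 chaperone, had the second largest fall. It measured 7.87, 6.05, 8.51 and 5.81 on the 24 h arrays, against 10.07, 9.23, 10.96 and 9.76 on the 2 h arrays. Its 24 h arrays 1 and 3 were higher than arrays 2 and 4 but still below every 2 h array (-2.95 ± 0.57, adjusted p = 0.00356). The near-identical Hspa1b has no probe by that name, so the signal may belong to either gene. Of 19 heat shock proteins and cochaperones, 4 fell and 0 rose (21.1% lower), with a median of -0.04. The other 3 were Bag3, a cochaperone of HSP70 (-0.67 ± 0.22, adjusted p = 0.0395), Hsp90ab1, the constitutive HSP90 (-0.53 ± 0.09, adjusted p = 0.00176), and Stip1, which links both chaperones (-0.41 ± 0.10, adjusted p = 0.0112). Hsp90ab1 has 2 further probes with smaller differences, of -0.26 and -0.16. With median scaling or in the authors' value table only 1 of the 19 was called.

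Genes that glucocorticoid hormones induce were mostly lower at 24 h, and the mean of the list was lower on each 24 h array (8.58 to 9.17) than on any 2 h array (9.35 to 9.49). Of 15 tested, 8 fell and 1 rose (53.3% lower), and the median was -0.62. Tsc22d3, the leucine zipper protein GILZ, measured 11.05, 10.74, 10.91 and 10.73 on the 24 h arrays, against 11.97, 11.84, 11.92 and 12.09 on the 2 h arrays. The arrays within each group differed by no more than 0.31 log2 units and the groups were far apart (-1.10 ± 0.11, adjusted p = 7.48e-05). Ddit4, an inhibitor of mTORC1 signalling, measured 8.99, 9.07, 9.10 and 9.18 on the 24 h arrays, against 10.37, 10.39, 10.31 and 10.13 on the 2 h arrays, as tight within groups (-1.21 ± 0.13, adjusted p = 7.48e-05). Errfi1, a feedback inhibitor of the EGF receptor, measured 10.53, 9.80, 10.68 and 9.86 on the 24 h arrays, against 11.45, 11.23, 11.70 and 11.63 on the 2 h arrays and was also separate (-1.28 ± 0.17, adjusted p = 0.000375). Pdk4, which blocks pyruvate entry into mitochondria, fell (-1.01 ± 0.17, adjusted p = 0.00163), as did the clock gene Per1 (-0.83 ± 0.20, adjusted p = 0.0103). The 1 member that rose was Sult1a1, a sulfotransferase, at 0.76 ± 0.13 (adjusted p = 0.00148). With 1 array left out, 6 to 8 fell.

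Further genes among the 12 largest falls have varied roles. Depp1, a FOXO target linked to autophagy, measured 5.09, 5.33, 5.61 and 5.01 on the 24 h arrays, against 7.79, 7.45, 6.72 and 6.73 on the 2 h arrays and did not overlap (-1.91 ± 0.30, adjusted p = 0.00118). It was detected on 2 of 4 arrays at 24 h, so its change also rests partly on signals below detection. Nf1, a brake on RAS, was detected on no 24 h array and on all 4 of the 2 h arrays, and was at least 2.46-fold lower (fitted change -1.65 ± 0.22, adjusted p = 0.000444). The bound is against the lowest signal that counted as detected, because a signal below it has no order. Cacng4, an auxiliary subunit of AMPA receptors (-1.41 ± 0.24, adjusted p = 0.00193), Ap2a1, a subunit of the clathrin adaptor AP-2 (-1.37 ± 0.29, adjusted p = 0.00519), and Flrt1, a neuronal adhesion protein (-1.30 ± 0.29, adjusted p = 0.00679), fell, each with separate groups. Plekhf1, an endosomal protein (-1.34 ± 0.18, adjusted p = 0.000343), and Tst, the mitochondrial sulfurtransferase rhodanese (-1.23 ± 0.18, adjusted p = 0.000764), completed the 12.

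Endothelial genes were higher at 24 h, and their mean was higher on each 24 h array than on any 2 h array. Of 18 tested endothelial markers, 12 rose and 0 fell (66.7% higher beside 9.77% of all genes), and their median change was 0.76. In 14 of the 18 every 24 h array lay above every 2 h array, as in 11.9% of all genes. Cldn5, the main tight junction protein of the blood-brain barrier, measured 10.04, 10.04, 10.05 and 9.58 on the 24 h arrays, against 8.41, 8.60, 8.17 and 8.15 on the 2 h arrays. The 24 h arrays were within 0.47 log2 units of each other, and array 4 was the lowest (1.60 ± 0.18, adjusted p = 0.000119). Vwf, the clotting factor stored in endothelial cells, measured 7.77, 7.82, 8.19 and 7.91 on the 24 h arrays, against 6.77, 6.70, 6.78 and 6.87 on the 2 h arrays with no overlap (1.14 ± 0.26, adjusted p = 0.00866).

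Sox18, a transcription factor of vessel identity (1.19 ± 0.23, adjusted p = 0.00356), Ly6a (1.25 ± 0.30, adjusted p = 0.00992) and Ly6c1 (1.09 ± 0.25, adjusted p = 0.00911), surface proteins that mouse brain endothelium carries, rose as well. Sox18 was detected on 1 of 4 arrays at 2 h, so the size of its change rests partly on signals below detection. Icam2, an adhesion molecule of resting endothelium that leukocytes bind, measured 7.48, 7.28, 7.12 and 6.68 on the 24 h arrays, against 4.95, 5.63, 5.48 and 5.25 on the 2 h arrays (1.81 ± 0.21, adjusted p = 0.000119). Among 9 blood-brain barrier transporters, 2 rose (22.2%) and 1 fell (11.1%). Slco1a4, a carrier of organic anions and thyroid hormone, measured 7.73, 7.57, 7.61 and 8.01 on the 24 h arrays, against 6.03, 6.19, 5.63 and 6.10 on the 2 h arrays, all 24 h arrays being well above the 2 h group (1.74 ± 0.19, adjusted p = 8.16e-05). Slc38a5, a glutamine transporter, measured 7.66, 7.14, 6.96 and 8.01 on the 24 h arrays, against 5.21, 6.24, 5.91 and 5.40 on the 2 h arrays (1.75 ± 0.37, adjusted p = 0.00549), and Slc38a3, a glutamine transporter found in astrocytes as well, fell (-0.94 ± 0.17, adjusted p = 0.00245). By array, the mean of the 18 endothelial markers was 8.17, 7.93, 8.23 and 7.88 on the 24 h arrays, against 7.30, 7.49, 7.33 and 7.12 on the 2 h arrays. Their summed normalized signal was 7101 to 10290 on the 24 h arrays and 4170 to 5503 on the 2 h arrays, against 6884 to 7569 on the sham arrays. The count of endothelial rises ran from 10 to 13 with 1 array left out. No pericyte or smooth muscle marker of 9 was called by limma (0 higher and 1 lower at an unadjusted p under 0.05).

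**Figure D2:**
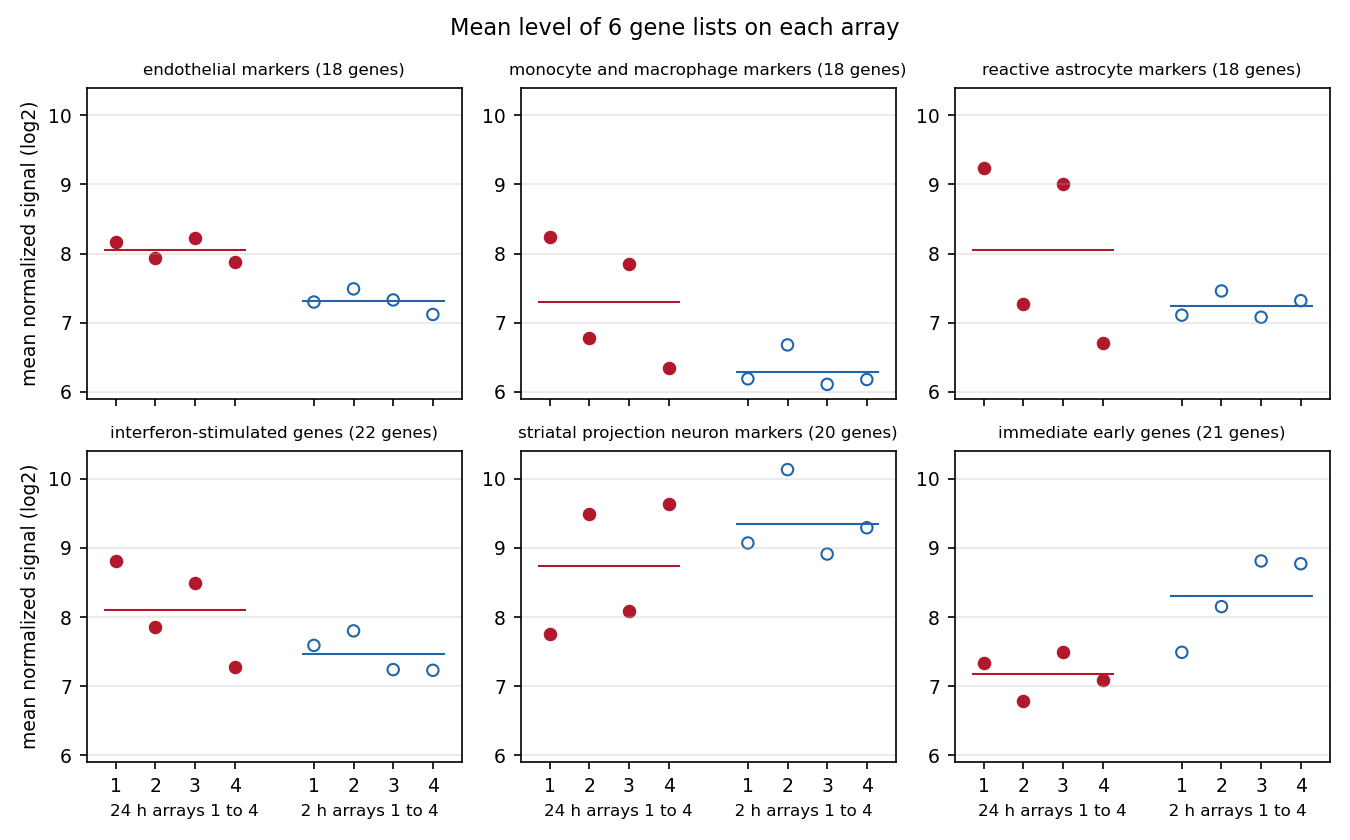
Mean normalized signal (log2, vertical axis) of 6 gene lists on each of the 4 arrays at 24 h (filled, left) and the 4 at 2 h (open, right), with lines at the group means. The endothelial points of the 24 h arrays lie between 7.88 and 8.23 and all above those of the 2 h arrays, while those of the reactive astrocyte list spread from 6.71 to 9.23.

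The acute-phase gene Serpina3n, a protease inhibitor that reactive astrocytes secrete, had the largest rise. It measured 13.07, 10.80, 12.85 and 10.14 on the 24 h arrays, against 9.71, 9.88, 9.29 and 9.22 on the 2 h arrays, with 24 h arrays 1 and 3 far above arrays 2 and 4 and all 4 above the 2 h group (2.19 ± 0.45, adjusted p = 0.00477). Lrg1, a glycoprotein that modifies TGF-beta signalling in vessels, showed the same order, at 9.46, 7.28, 8.77 and 7.13 on the 24 h arrays, against 6.03, 6.63, 6.05 and 5.74 on the 2 h arrays (2.05 ± 0.45, adjusted p = 0.00696). Saa3, an acute-phase apolipoprotein, measured 8.66, 6.13, 7.42 and 5.68 on the 24 h arrays, against 4.90, 5.41, 5.12 and 4.78 on the 2 h arrays (1.92 ± 0.42, adjusted p = 0.00658). For all 3 the spread within the 24 h group was larger than that within the 2 h group. Saa3 was detected on 4 arrays at 24 h and on 1 at 2 h, so most of its 2 h levels lie below detection.

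Of 18 reactive astrocyte markers, 3 rose (16.7%) and 0 fell, although the list median was 0.84. Besides Serpina3n these were Cp, the copper ferroxidase ceruloplasmin (0.67 ± 0.20, adjusted p = 0.026), and Cxcl10, an interferon-induced chemokine (1.40 ± 0.46, adjusted p = 0.0439). Cxcl10 was detected on 3 of 4 arrays at 24 h and on 2 of 4 at 2 h. Gfap, the astrocyte filament protein, was not called, at 9.57, 8.38, 9.59 and 8.08 on the 24 h arrays, against 8.81, 9.09, 8.71 and 9.11 on the 2 h arrays (-0.02 ± 0.27, adjusted p = 0.964). Vim, another filament protein (0.77 ± 0.37, adjusted p = 0.157), Lcn2, an iron-carrier binding protein (0.95 ± 0.78, adjusted p = 0.415), and Timp1, an inhibitor of metalloproteinases (0.83 ± 0.55, adjusted p = 0.312), were not called. Every 24 h array lay above every 2 h array in 1 of the 18 markers, beside 11.9% of all genes. The list averaged 9.23, 7.27, 9.0 and 6.71 on the 24 h arrays, against 7.11, 7.46, 7.08 and 7.32 on the 2 h arrays. The median SD of its members was 1.30 within the 24 h group and 0.285 within the 2 h group, against 0.192 and 0.179 for all tested genes. Without 24 h array 4, 12 of the 18 were called higher, 5 without 24 h array 2, and 1 without 24 h array 1, without 24 h array 3, or without 2 h array 1 or 4.

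Monocyte and macrophage markers were higher at 24 h, most on arrays 1 and 3. Of 18 tested, 9 rose and 0 fell (50% higher), with a median of 0.99. In 3 of the 18 every 24 h array lay above every 2 h array, beside 11.9% of all genes. The list averaged 8.24, 6.78, 7.85 and 6.34 on the 24 h arrays, against 6.19, 6.68, 6.11 and 6.18 on the 2 h arrays. Its mean on 24 h array 4 thus lay inside the 2 h range. Fcgr4, an activating antibody receptor, measured 9.36, 7.20, 8.33 and 6.08 on the 24 h arrays, against 6.03, 6.33, 4.99 and 5.21 on the 2 h arrays. Array 4 at 24 h lay within the 2 h range, and the mean difference passed (2.10 ± 0.48, adjusted p = 0.0085). Tgfbi, a matrix protein that macrophages secrete, measured 9.94, 8.04, 9.48 and 7.59 on the 24 h arrays, against 6.83, 7.59, 6.92 and 7.24 on the 2 h arrays and did not overlap, although by a margin of 0.004 log2 units (1.62 ± 0.40, adjusted p = 0.0116).

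Ms4a6d, a macrophage membrane protein (1.73 ± 0.54, adjusted p = 0.0332), and Fcgr2b, the inhibitory antibody receptor (1.71 ± 0.46, adjusted p = 0.0177), rose with overlapping groups. Lilrb4a, an inhibitory receptor of myeloid cells, was detected on 2 of 4 arrays at 24 h and on no 2 h array. It measured 7.76 and 7.43 on 24 h arrays 1 and 3, and 4.90 and 4.65 on arrays 2 and 4 (fitted change 1.57 ± 0.49, adjusted p = 0.0337). No bound on the fold is given, because 24 h signals also lay below detection. Cd53, a tetraspanin of leukocytes (1.37 ± 0.35, adjusted p = 0.0147), Rab32, a small GTPase of lysosome-related organelles (1.44 ± 0.26, adjusted p = 0.00244), Ppic, a cyclophilin of the endoplasmic reticulum (1.44 ± 0.24, adjusted p = 0.00146), and Lyz1, a lysozyme whose probe may also read the near-identical Lyz2 (1.36 ± 0.25, adjusted p = 0.00273), were among the 12 largest rises. The summed signal of the 18 markers was 1792 to 9083 on the 24 h arrays and 1518 to 2473 on the 2 h arrays. Their count was 4 without 24 h array 1, 5 without 24 h array 3, 6 without 2 h array 1 or 3, and 12 without 24 h array 4. Of 17 homeostatic microglia markers 2 were higher and 2 lower, 11.8% each way beside 9.77% and 8.59% of all genes. P2ry12, a receptor of resting microglia, was not called (0.04 ± 0.29, adjusted p = 0.933). P2ry6, a nucleotide receptor that triggers phagocytosis, rose (1.06 ± 0.26, adjusted p = 0.0118), and Selplg, a ligand of selectins, fell (-1.12 ± 0.23, adjusted p = 0.00514).

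Interferon-stimulated genes rose in part. Of 22 tested, 7 rose and 0 fell (31.8% higher), and the median was 0.72. In 2 of the 22 every 24 h array lay above every 2 h array, beside 11.9% of all genes. Oasl2, an oligoadenylate synthase-like protein, measured 9.36, 8.06, 8.74 and 6.67 on the 24 h arrays, against 6.53, 6.76, 6.33 and 6.54 on the 2 h arrays, with 24 h array 4 inside the 2 h range (1.67 ± 0.37, adjusted p = 0.00719). Ifitm3, which blocks virus entry (1.28 ± 0.35, adjusted p = 0.0183), Usp18, which removes ISG15 from proteins (1.22 ± 0.37, adjusted p = 0.0287), and Isg15 itself (1.05 ± 0.31, adjusted p = 0.0282) also rose. The count was 16 without 24 h array 4, and 3 without 24 h array 1, without 24 h array 3 or without 2 h array 4. Tap2, a peptide transporter for antigen presentation (0.71 ± 0.17, adjusted p = 0.0113), and C3, the central complement component (1.20 ± 0.30, adjusted p = 0.013), rose with separate groups. Of 11 MHC and antigen presentation genes 2 rose (18.2% beside 9.77% of all genes) and 0 fell, with a median of 0.11. Of 10 complement genes 2 rose (20%) and 0 fell, with a median of -0.0026.

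Genes of lysosomes and of the actin cytoskeleton rose in part too. Of 24 lysosome and phagocytosis genes, 7 rose (29.2%) and 3 fell. Ctsc, a protease that activates granule enzymes, measured 9.33, 8.26, 9.20 and 8.24 on the 24 h arrays, against 7.70, 7.90, 7.46 and 7.42 on the 2 h arrays with separate groups (1.14 ± 0.21, adjusted p = 0.0025). Cd68, a lysosomal membrane protein of phagocytes, rose (1.06 ± 0.23, adjusted p = 0.00571), as did the protease Ctss (0.91 ± 0.28, adjusted p = 0.0327). Among the falls was Apoe, the lipid carrier made by astrocytes (-0.68 ± 0.15, adjusted p = 0.00633). Of 23 cytoskeleton and migration genes, 5 rose (21.7%) and 0 fell, led by Arpc1b, a subunit of the actin-branching ARP2/3 complex (1.33 ± 0.25, adjusted p = 0.00342), and Msn, which ties actin to the membrane (1.21 ± 0.29, adjusted p = 0.00982). Lysosome rises numbered 3 without 24 h array 1 or 2 h array 3, and 4 without 24 h array 3 or 2 h array 1. Cytoskeleton rises numbered 8 without 24 h array 4, and 3 without 24 h array 1 or 3 or 2 h array 3 or 4.

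Of 17 cytokines and chemokines tested, 2 rose (11.8% beside 9.77% of all genes) and 0 fell. The rises were Cxcl10 (given above) and Cxcl12, a chemokine that vessels present (0.56 ± 0.15, adjusted p = 0.0155), whose 2 other probes gave -0.29 and 0.13. Ccl3, which attracts monocytes, measured 8.70, 5.84, 8.85 and 4.44 on the 24 h arrays, against 7.80, 7.98, 8.06 and 9.40 on the 2 h arrays and was not called (-1.35 ± 0.68, adjusted p = 0.173). Its 24 h arrays 1 and 3 were within the 2 h range and arrays 2 and 4 below it. Il1b, the inflammatory cytokine, measured 7.49, 5.06, 8.27 and 5.08 on the 24 h arrays, against 6.42, 6.96, 5.46 and 7.41 on the 2 h arrays, with 24 h arrays 1 and 3 above every 2 h array and arrays 2 and 4 below every one (-0.09 ± 0.56, adjusted p = 0.933). Ccl4 (-1.35 ± 0.87, adjusted p = 0.294) and Ccl2 (0.50 ± 0.60, adjusted p = 0.591) were not called, and Il6 and Tnf were below the detection filter. Without 24 h array 4, 7 of the 17 were called higher, and 3 without 24 h array 2. Without 24 h array 3, 1 was higher and 3 were lower, and without 2 h array 1, 0 were higher and 1 was lower (limma). Any other single array left out gave 1 rise and at most 1 fall. Nfkbia, the inhibitor that holds NF-kB in the cytoplasm, fell (-1.18 ± 0.18, adjusted p = 0.00107), and so did Cish, an inhibitor of cytokine receptors (-0.95 ± 0.16, adjusted p = 0.00163). Both are among 17 tested genes of NF-kB feedback and cytokine signalling, of which no other was called. That is 11.8% lower beside 8.59% of all genes, with a median of -0.10. None of 5 tested neutrophil markers was called by limma (1 higher and 0 lower at an unadjusted p under 0.05). S100a8, a calcium-binding protein of neutrophils, measured 10.22, 7.65, 11.12 and 5.93 on the 24 h arrays, against 8.52, 9.35, 7.41 and 5.86 on the 2 h arrays, the 2 h arrays 1 and 2 also being high (0.95 ± 0.95, adjusted p = 0.514). The summed signal of these 5 was 245.2 to 3388 on the 24 h arrays and 221.7 to 1011 on the 2 h arrays. Haemoglobin transcripts, a sign of blood in the tissue, varied most among the 2 h arrays: Hba-a1 measured 9.18, 9.26, 8.33 and 6.46 on the 24 h arrays, against 12.54, 12.92, 8.31 and 8.04 on the 2 h arrays (-2.14 ± 0.95, adjusted p = 0.123). The part of retained blood in any result was not tested.

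**Figure D3:**
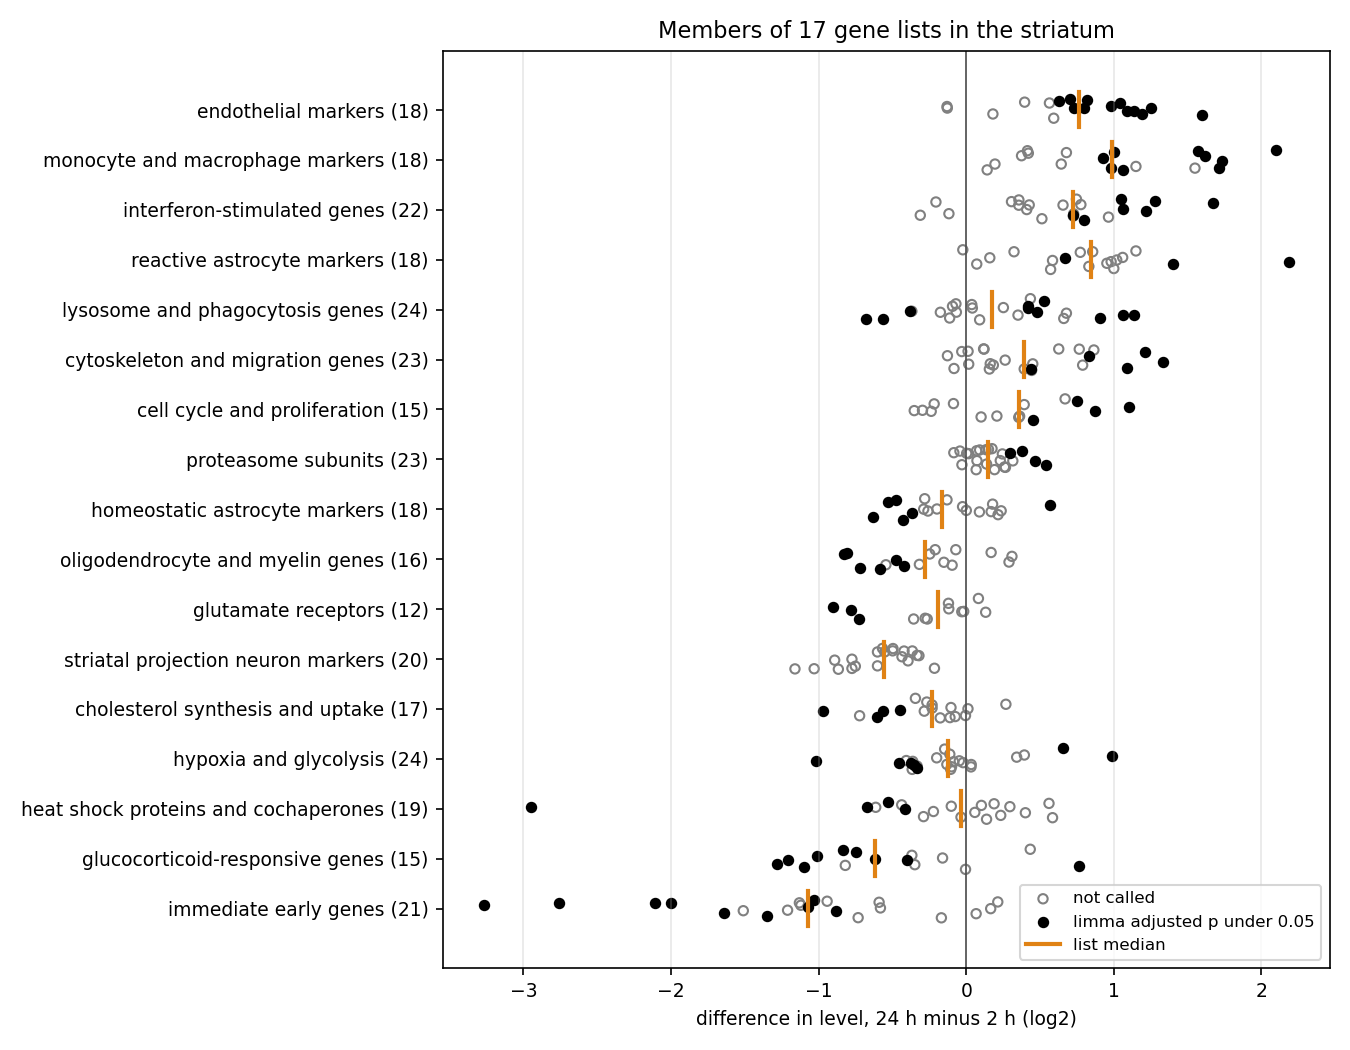
Differences in level (24 h minus 2 h, log2, horizontal axis) of every tested member of 17 gene lists, with the number tested in brackets, filled points for called members and a bar at the list median. The endothelial points sit mostly right of 0 with a median of 0.76, the immediate early points mostly left of it with a median of -1.07, and no striatal projection neuron marker is called.

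Of 20 striatal projection neuron markers limma called 0 (0 higher and 4 lower at an unadjusted p under 0.05), although the list median was -0.56. Drd1 measured 7.44, 9.91, 7.87 and 9.85 on the 24 h arrays, against 8.58, 10.47, 8.50 and 9.26 on the 2 h arrays (-0.43 ± 0.55, adjusted p = 0.612). The 24 h arrays 1 and 3, the same 2 that were highest for macrophage and reactive astrocyte markers, lay below every 2 h array, and arrays 2 and 4 lay within the 2 h range. Ppp1r1b measured 9.34, 11.67, 10.44 and 11.71 on the 24 h arrays, against 11.25, 12.25, 10.83 and 11.23 on the 2 h arrays (-0.60 ± 0.43, adjusted p = 0.342), and Drd2, the dopamine receptor of the indirect pathway, came closest to the threshold (-0.87 ± 0.32, adjusted p = 0.0632). By array the list averaged 7.76, 9.49, 8.09 and 9.63 on the 24 h arrays, against 9.07, 10.13, 8.91 and 9.29 on the 2 h arrays. On the sham arrays it averaged 9.94, 9.91, 9.10 and 9.14, so it also varied without occlusion. Without 24 h array 4, 4 of the 20 were called lower, and without 24 h array 2, 3 were.

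Of 12 glutamate receptor genes 3 fell (25% beside 8.59% of all genes) and 0 rose. Among them were Gria1, an AMPA receptor subunit (-0.72 ± 0.14, adjusted p = 0.00423), and Grik5, a kainate receptor subunit (-0.78 ± 0.23, adjusted p = 0.0258). Gria1 measured 9.43, 10.11, 10.07 and 10.06 on the 24 h arrays, against 10.65, 10.82, 10.58 and 10.50 on the 2 h arrays, with no overlap and 24 h array 1 the lowest. Among 11 GABA genes 2 fell (18.2%), with Gabbr1, a subunit of the metabotropic GABA receptor, 1 of them (-0.54 ± 0.17, adjusted p = 0.0356). Of 32 channel genes 2 fell (6.25%, below the 8.59% of all genes), Hcn2, a pacemaker channel (-0.55 ± 0.13, adjusted p = 0.00901), and Kcnd2, an A-type potassium channel (-0.61 ± 0.20, adjusted p = 0.038). Of 19 synaptic vesicle and SNARE genes 3 fell (15.8%) and 1 rose (5.26%). Among the falls were Sv2a, a synaptic vesicle protein (-0.72 ± 0.11, adjusted p = 0.00122), and Syn2, a synapsin (-0.68 ± 0.15, adjusted p = 0.00738).

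Myelin and astrocyte maintenance genes fell in part. Of 16 oligodendrocyte and myelin genes, 6 fell (37.5%) and 0 rose, with a median of -0.28. Mog, a glycoprotein of the outer myelin surface, measured 10.61, 10.55, 10.12 and 10.07 on the 24 h arrays, against 10.90, 10.79, 10.84 and 11.14 on the 2 h arrays, all 24 h arrays being lower (-0.58 ± 0.15, adjusted p = 0.014). Cnp, a myelin enzyme (-0.81 ± 0.15, adjusted p = 0.00342), and Ugt8a, which makes the galactolipids of myelin (-0.72 ± 0.18, adjusted p = 0.0124), fell, while Mbp, the main myelin basic protein, was not called (-0.15 ± 0.10, adjusted p = 0.296). Other probes of Mbp gave differences of -0.51 and -0.06. Mobp, also among the 6 falls (-0.47 ± 0.15, adjusted p = 0.0392), had other probes with differences of 0.09 and 0.30. The myelin count was 2 with median scaling and 1 in the authors' value table.

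Of 18 homeostatic astrocyte markers 5 fell (27.8%) and 1 rose. Aqp4, the water channel of astrocyte endfeet, measured 10.82, 10.59, 10.65 and 10.29 on the 24 h arrays, against 11.17, 11.01, 11.29 and 11.40 on the 2 h arrays (-0.63 ± 0.14, adjusted p = 0.00704). Glul, glutamine synthetase, was the rise (0.57 ± 0.19, adjusted p = 0.047). The same scaling choices gave 1 and 0 astrocyte falls, and there were 3 without 24 h array 1 or without 2 h array 3 or 4. Choroid plexus genes also varied between arrays, as Ttr, the thyroxine carrier made there, measured 12.53, 13.47, 13.65 and 14.06 on the 24 h arrays, against 13.98, 14.02, 13.91 and 11.28 on the 2 h arrays, 2 h array 4 being lowest. Of 15 such markers 2 fell (13.3%), Enpp2 (-0.79 ± 0.27, adjusted p = 0.0491) and Rarres2 (-0.70 ± 0.21, adjusted p = 0.0278), and without 2 h array 4 it was 7. Their summed signal was 9395 to 24820 on the 24 h arrays and 8063 to 28380 on the 2 h arrays.

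Of 24 hypoxia and glycolysis genes 5 fell (20.8%) and 2 rose. Only 1 fell with median scaling or in the authors' value table, where Eno1 and Pkm lost their calls, and 3 without 24 h array 1. Ndrg1, a hypoxia-induced gene that oligodendrocytes also express, measured 9.46, 9.71, 9.36 and 9.47 on the 24 h arrays, against 10.51, 10.36, 10.58 and 10.63 on the 2 h arrays (-1.02 ± 0.13, adjusted p = 0.000254), and the glycolytic enzymes Eno1 (-0.45 ± 0.11, adjusted p = 0.0106) and Pkm (-0.37 ± 0.10, adjusted p = 0.0138) fell. Hk2, the inducible hexokinase (0.99 ± 0.24, adjusted p = 0.0117), and Hif1a, the hypoxia-inducible factor (0.66 ± 0.16, adjusted p = 0.00968), rose. Vegfa, the vascular growth factor, was not called (-0.20 ± 0.18, adjusted p = 0.454).

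Of 17 cholesterol genes 4 fell (23.5%; 2 with median scaling and 1 in the authors' value table), led by Mvd, which makes isopentenyl pyrophosphate (-0.97 ± 0.19, adjusted p = 0.00397), and including the regulator Srebf2 (-0.56 ± 0.13, adjusted p = 0.00832). Of 23 proteasome subunits 4 rose and 0 fell (17.4%), Psma3 by most (0.54 ± 0.11, adjusted p = 0.004). The proteasome count was 1 with median scaling, in the value table, or without 24 h array 1 or 2 h array 1 or 3, and 2 without 2 h array 2. Of 26 respiratory chain genes 5 rose (19.2%) and 1 fell. With median scaling 2 rose and 0 fell, and the value table gave 1 rise and 0 falls. The rises numbered 1 without 24 h array 1 or 2 h array 1, 2 without 2 h array 2, and 3 without 24 h array 2 or 3, and 3 genes fell without 2 h array 4. Of 26 cytosolic ribosomal proteins 1 rose (3.85%), Rpl4 (0.38 ± 0.13, adjusted p = 0.0443). Among 15 cell cycle genes 4 rose (26.7%): Uhrf1, which maintains DNA methylation (1.10 ± 0.22, adjusted p = 0.0043), Mcm6 (0.87 ± 0.21, adjusted p = 0.00994) and Mcm5 (0.45 ± 0.15, adjusted p = 0.0399) of the replicative helicase, and the kinase Cdk2 (0.75 ± 0.15, adjusted p = 0.00434). With slide as a block Mcm5 was no longer called (adjusted p = 0.0554). Of 16 growth factors and injury-induced peptides 1 rose (6.25%) and 2 fell (12.5%). The rise was Gdnf, a growth factor for dopamine neurons (1.11 ± 0.22, adjusted p = 0.00449). It was detected on 4 arrays at 24 h and on 1 at 2 h. Of 22 antioxidant, Nrf2 target and metallothionein genes 2 rose (9.09%) and 1 fell (4.55%), beside 9.77% and 8.59% of all genes. The fall was Gpx3, a secreted glutathione peroxidase (-0.84 ± 0.20, adjusted p = 0.0104), while Gpx1, the cytosolic form, was not called (0.03 ± 0.12, adjusted p = 0.891).

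The sham and 8 h arrays place these differences in time, as a description without a further test. A group mean was taken as near sham within 0.5 log2 units. Nearness says little where both groups lie below detection, as for Lilrb4a at 2 h and in sham (0 arrays detected). Saa3 was detected on 1 array at 2 h and 0 in sham, and Cxcl10 on 2 and 0. Of the 79 genes that were at least 2-fold higher at 24 h, 68 had a 2 h mean near sham and a 24 h mean away from it. In 4, Adcy4, Ly6a, Ly6c1 and Slc38a5, the 24 h mean was near sham and the 2 h mean below it. In 6, Arap3, Cldn5, Icam2, Ifitm3, Slco1a4 and Sox18, the sham mean lay between. Cldn5 thus had a sham mean of 9.03, a 2 h mean of 8.33, an 8 h mean of 8.51 and a 24 h mean of 9.93. Slco1a4 had a sham mean of 7.20, a 2 h mean of 5.99, an 8 h mean of 6.38 and a 24 h mean of 7.73. Of these 10 genes Cldn5, Ly6a, Ly6c1 and Sox18 are on the endothelial list, and Slc38a5 and Slco1a4 on the transporter list. For Serpina3n the sham mean was 8.97, the 2 h mean 9.52, the 8 h mean 10.94 and the 24 h mean 11.71, and it was the 1 rise with both times on the same side.

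Of the 40 genes at least 2-fold lower at 24 h, 11 had a 24 h mean near sham and a 2 h mean above it. These were Arc, Cebpb, Egr4, Hspa1a, Junb, Jund, Npas4, Nr4a2, Nr4a3, Pdk4 and Rrad, of which 7 are on the immediate early list. In 26 the 2 h mean was near sham and the 24 h mean lower, among them Depp1, Ddit4, Errfi1, Nf1, Nfkbia, Cacng4 and Tst. In Fosb, Rem2 and Tsc22d3 sham lay between. Npas4 had a sham mean of 5.22, a 2 h mean of 8.13, an 8 h mean of 6.16 and a 24 h mean of 5.36. It was detected on 2 of 4 arrays in sham and on 2 of 4 at 24 h. The means of Ddit4 were 10.11 for sham, 10.3 for 2 h, 10.11 for 8 h and 9.09 for 24 h, so only its 24 h mean lay apart. The 8 h mean lay between the means of the 24 h and 2 h groups in 71 of the 79 higher and 33 of the 40 lower genes. These genes were chosen for a wide gap between those 2 means, which favours such a position. The share over all genes was not computed, either for this position or for the positions against sham.

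**Figure D4:**
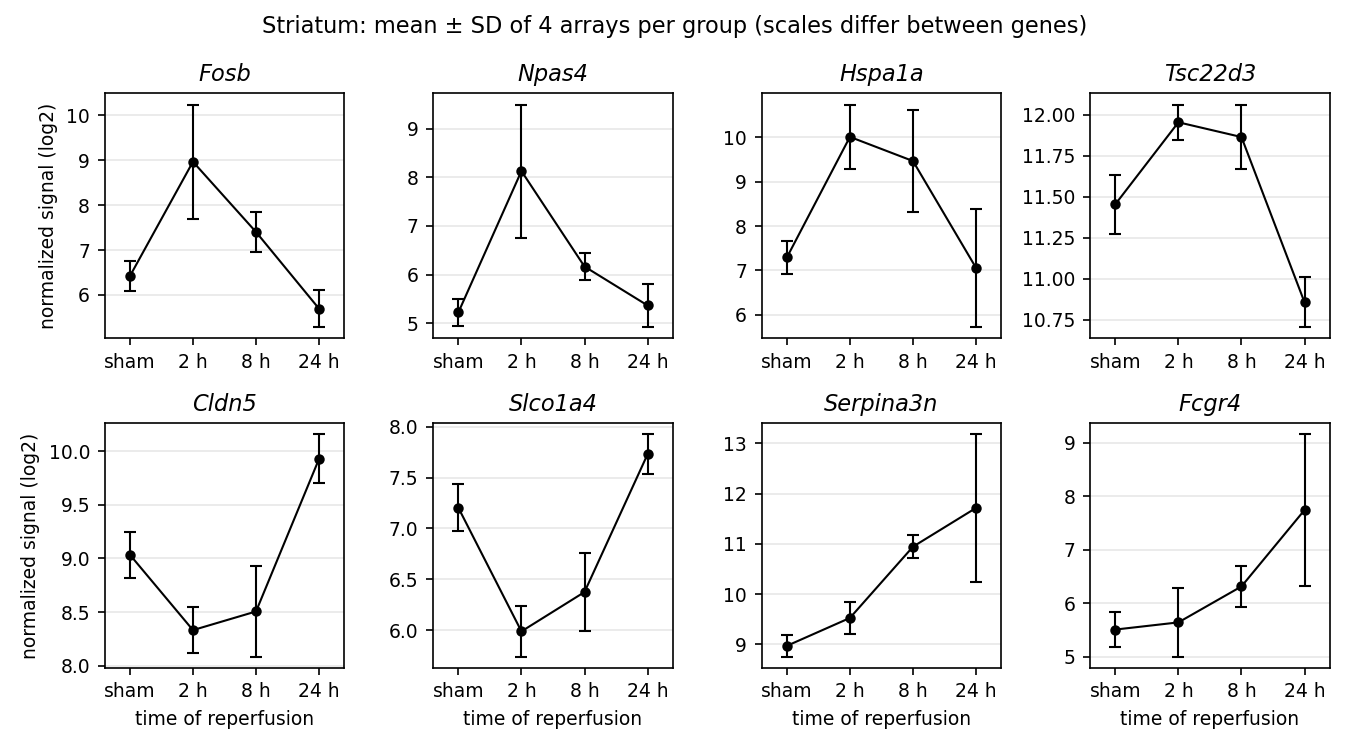
Mean normalized signal (log2, vertical axis, scale set per gene) of 8 genes in sham striatum and at 2, 8 and 24 h of reperfusion, with error bars of 1 SD over 4 arrays. Fosb, Npas4 and Hspa1a peak at 2 h, Tsc22d3 is near its 2 h level at 8 h and lower at 24 h, Cldn5 and Slco1a4 are lowest at 2 h and above sham at 24 h, and Serpina3n and Fcgr4 have their widest error bars at 24 h.

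The same contrast in the right cortex, from 4 arrays at each time, was compared in 1 fit of all 32 arrays. The labels do not say whether a striatum array and a cortex array come from the same mouse, and the fit treats them as independent. All 79 genes at least 2-fold higher in the striatum also had a positive difference in the cortex, and 39 of the 40 lower genes a negative one, Cebpb being the other (-1.13 in the striatum and 0.24 in the cortex), while 64.4% of all tested genes had the same sign in both tissues. Of 10080 genes, limma called the difference between tissues in 222 (2.2%), 99 with the striatum change above the cortex change (0.982%) and 123 below it (1.22%). Of these 222, 151 were also called in the striatum contrast. Limma called the difference in 0 members of the endothelial, macrophage and immediate early lists. At an unadjusted p under 0.05 the striatum change was above the cortex change in 0, 1 and 0 of them, and below it in 3, 1 and 1. Fosb changed by -3.27 in the striatum and -2.72 in the cortex, and the difference did not pass (-0.55 ± 0.60, adjusted p = 0.656). For Cldn5 the changes were 1.60 in the striatum and 1.94 in the cortex (-0.34 ± 0.26, adjusted p = 0.488), and for Slco1a4 1.74 in the striatum and 0.56 in the cortex (1.18 ± 0.34, adjusted p = 0.0578).

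Where the tissues differed, Gpx3 had the lowest value of striatum minus cortex (-1.39 ± 0.33, adjusted p = 0.0267), with changes of -0.84 in the striatum and 0.56 in the cortex. For Ap2a1 the changes were -1.37 in the striatum and -0.12 in the cortex (-1.25 ± 0.33, adjusted p = 0.0429). For Nf1 the fitted changes were -1.65 in the striatum and -0.51 in the cortex (-1.14 ± 0.29, adjusted p = 0.0369), but it was detected on 0 of the 4 striatum arrays at 24 h, so its striatum change and the difference rest on signals below detection. Hspg2, the basement membrane proteoglycan perlecan, changed by -0.22 in the striatum and 0.91 in the cortex (-1.13 ± 0.29, adjusted p = 0.0361). In the other direction Gpatch2l changed by 0.97 in the striatum and -0.21 in the cortex (1.18 ± 0.29, adjusted p = 0.0321), and Trim37, a ubiquitin ligase, by 0.90 in the striatum and -0.21 in the cortex (1.11 ± 0.26, adjusted p = 0.0237). Arhgap26, a GTPase-activating protein, changed by -0.0041 in the striatum and -1.11 in the cortex (1.11 ± 0.18, adjusted p = 0.00542). The count of 222 rests on single arrays and on the scaling: it ran from 74 (without 2 h array 1 of the striatum) to 477 (without 24 h array 2 of the cortex). Leaving out 1 of 16 arrays lowered it by over 1.5 times in 11 cases and raised it by that much in 2, and it was 0 with median scaling (1493 genes at an unadjusted p under 0.05).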

How the data were processed

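The authors exported probe signals with BeadStudio 3.3.7, per the file headers, as intensity values without normalization or background subtraction, together with detection values that the deposited files give as a fraction (1 minus the detection p). The deposited value table of the series holds linear ratios near 1 in sham arrays, whose scale, centring and direction are not given in the sources used here, and log2 of these ratios was an alternative. The whole-series signal table was used here, without 837 probes that had no value, and without 8 columns that match no sample. Its replicate numbers and the array codes of the descriptions name different replicates (0 of 32 arrays have the same number, all 32 the same group); detection values were joined through identical signals. The cortex file gives 1 value per gene, so cortex detection was interpolated from signal over genes with 1 probe.

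Signals were background-corrected with limma 3.58.1 (R 4.3.3), by normexp from the detection p with an offset of 16, then quantile-normalized over 32 arrays and put on the log2 scale. Probes detected (p under 0.05) on all 4 arrays of at least 1 striatum group were kept, with 1 probe per gene, that of the highest mean. Symbols came from RefSeq tables by accession (23872 probes), symbol (731) or synonym (709), or else from the file (385). All 16 striatum arrays were fitted (lmFit, eBayes with trend), 24 h minus 2 h, 2-sided, with Benjamini-Hochberg adjustment. In simulated data with 200 changed genes, 61.2%, 91% and 97% were recovered at 1.5-, 2- and 3-fold, with 4 false calls (2.35%). For the difference between tissues these shares were 16.4%, 80.6% and 100%, with 6 false calls (4.38%). The simulated noise was normal, independent between genes and arrays, and of 1 spread per gene in all groups. The 24 h arrays differed from this, and many more genes were called, so these rates may not hold for the data.

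Named genes are the 12 largest rises and 12 largest falls called with non-overlapping groups (gene models passed over), up to 5 called members of each of 50 lists with the largest change, a panel, and 5 and 5 for the tissues. Sult1a1, Klf2, Klf4, Klf6, Slc17a6, Slc17a7, Tcf7l2, Ttr and the genes named only by their position against sham were added after their values were seen. The members, lists and tests were chosen with earlier results of these data known. A few genes are not reported here by name, though lists and counts over genes include them. Motifs shorter than the full elements were added after the full ones had been searched.

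Same-numbered arrays of the compared groups share a slide, but their deviations from the group means correlated at only -0.033, 0.0492, 0.144 and -0.0764, so slide was not in the model. Alternatives comprised median scaling, quantile normalization within each tissue, signals without background correction or with an offset of 50, other filters and every probe. Others were the authors' value table, fewer groups, array weights, no trend, slide or number as a block, and each array left out.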

Additional observations from a re-analysis of the deposited data

Results flagged for a closer look

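Among 326 groups of 4 arrays tested for a single stray array, 8 were flagged (2.45%), and chance flags about 1 in 20. At 24 h the stray arrays were the lowest for Cldn5 (array 4, 9.58), Gria1 (array 1, 9.43) and Nr1d2 (array 2, 9.29). At 2 h they were the lowest for Csnk1e (array 1, 10.34) and Ly6c1 (array 4, 8.17), and the highest for Ccl3 (array 4, 9.40), H2bc6 (array 2, 7.62) and Psmd14 (array 4, 9.52). By array the flags numbered 1, 1 and 3 for 2 h arrays 1, 2 and 4, and 1 each for 24 h arrays 1, 2 and 4.

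The change from 2 h to 24 h differed between the striatum and the cortex, by limma's test of the difference, for 10 named genes. Striatum minus cortex was 1.18 for Gpatch2l, 1.13 for Acvr1c, 1.11 for Pdp1, 1.11 for Trim37 and 1.11 for Arhgap26. It was -1.09 for Ret, -1.13 for Hspg2, -1.14 for Nf1 (a fitted value, since 0 of the 4 striatum arrays at 24 h detected it), -1.25 for Ap2a1 and -1.39 for Gpx3. Acvr1c, a receptor of activin-like ligands, changed by 0.19 in the striatum and -0.93 in the cortex (1.13 ± 0.31, adjusted p = 0.0472), and Pdp1, a phosphatase that activates pyruvate dehydrogenase, by 0.16 in the striatum and -0.95 in the cortex (1.11 ± 0.23, adjusted p = 0.0123). Ret, the receptor of GDNF, changed by -0.79 in the striatum and 0.31 in the cortex (-1.09 ± 0.26, adjusted p = 0.0264) and was detected on all 8 striatum arrays, on 1 cortex array at 24 h and on 0 at 2 h.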

How the results depend on the processing

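No called named gene changed sign under any setting, while Ccl2, Drd1, Gfap, Gpx1, Hmox1, Il1b, P2ry12, S100a8 and Socs3, none of them called, took both signs. Of 144 named genes that were called, 96 were called with every array left out in turn. Under every other setting that tested the gene it was 75, and 73 under both. Among the 73 were Junb, Tsc22d3, Ddit4, Cldn5 and Serpina3n, tested in all 16 other settings. Fosb, Npas4, Hspa1a, Slco1a4, Icam2 and Fcgr4 were also among them, but were tested in only 15 of the 16. The 16 include quantile normalization over the striatum arrays alone and a repeat of it, so not all are distinct. Against 1811 genes, 821 were called with median scaling (62.7% of them higher, against 53.2%) and 552 in the authors' value table (64.5% higher). Leaving out single arrays gave 950 to 1827, the lowest without 24 h array 1. Against 119 genes at 2-fold or more, there were 48 without background correction, 50 with an offset of 50, 70 with detection at p under 0.01 on all striatum arrays, 47 in the value table, 76 with array weights, and 70 to 206 with 1 array left out. Every probe taken separately gave 2337 calls among 13378 probes. For the difference between tissues (222), the counts were 0 with median scaling (limma, 1493 at an unadjusted p under 0.05), 82 without a detection filter, 625 with array weights, 146 without a variance trend, 378 with slide as a fixed replicate block, and 74 to 477 with 1 array left out. The causes were not tested. Of the genes named in the text above, Cp, Ctss, Cxcl10, Enpp2, Fcgr2b, Gabbr1, Glul, Grik5, H2bc6, Ifitm3, Isg15, Kcnd2, Lilrb4a, Mcm5, Ms4a6d, Psmd14, Rarres2, Rpl4 and Usp18 were not called without 24 h array 1. The calls lost without any other 1 of the 8 arrays were among these, apart from Bag3 (without 24 h array 2 or 4, or 2 h array 2, 3 or 4) and Cxcl12 (without 2 h array 1). With all arrays kept, the other settings gave 5 to 9 glucocorticoid falls (8), 4 to 11 macrophage rises (9), 3 to 8 interferon rises (7), 1 to 4 reactive astrocyte rises (3) and 2 to 8 lysosome rises (7), with the reported count in brackets. Slide as a fixed replicate block gave 1917 calls, 1704 of them shared with the fit without it. It moved 4 named genes across the threshold, with adjusted p = 0.0635 for Gp1bb, 0.0554 for Mcm5, 0.0554 for Mobp and 0.043 for Lgals3 (0.067 without it), and changed no other named call. The replicate number as a block gave 1694, and slide as a random replicate block 1925. Signals near background are compressed by the offset, so their changes are understated, and 4 arrays a group limit every value. At 2 h Uhrf1 and Ccl2 were detected on 2 of 4 arrays, and Icam2, Slc38a5 and Fcgr4 on 3. At 24 h Atf3, Il1b and Ccl2 were detected on 2 of 4 arrays, and Ccl3 and Ccl4 on 3.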
